A study of Mus musculus with 2 samples.

Results

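The Cd209 lectins are a family of C-type lectin receptors whose genes lie side by side in the mouse genome. The 5 members described here, Cd209a, Cd209b, Cd209d, Cd209f and Cd209g, were chosen by their symbols and from their UMI counts in earlier work on these same cells, out of 32285 genes in the matrix. The matrix holds 7 genes of the family, and the other 2, Cd209c and Cd209e, were left out of the member list but are given beside it. Since the members were chosen from these counts, their levels are a description with no test.

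The cells came from the dorsal skin of untreated wild-type (WT) male mice aged 9 or 108 weeks and had been sorted for F4/80, a macrophage surface protein, and for a high level of MHC class II. For each age 1 droplet-based single-cell library was made from 2 mice whose cells were pooled, so that single mice could not be compared. Both libraries were deposited as 1 matrix, in which a barcode suffix marks the library but no source used here ties a suffix to an age. The ages are therefore pooled below, the libraries are called library 1 and library 2, and age was not compared. A UMI marks 1 captured RNA molecule near its 3′ end, so that levels are given as UMIs per 1e+06 UMIs (CPM) without division by gene length.

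C-type lectins bind sugars on pathogens and on the body's own glycoproteins through a carbohydrate recognition domain that needs calcium. The mouse Cd209 genes are the counterparts of human DC-SIGN (CD209), a receptor of dendritic cells and macrophages that takes up mannose-rich and fucose-rich ligands. Cd209a is widely used as a marker of monocyte-derived and type 2 dendritic cells. Cd209b, also called SIGN-R1, is known from marginal zone macrophages of the spleen, where it binds microbial polysaccharides. Cd209d, Cd209f and Cd209g have been studied less, and Cd209f is used as a marker of resident macrophages in connective tissue.

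The 7 family genes of the matrix were all found in GENCODE vM21 (GRCm38) and span 394311 bases of chromosome 8. From the low to the high coordinate they are Cd209a, Cd209e, Cd209d, Cd209b, Cd209c, Cd209f and Cd209g. Cd209g is the 1 gene on the forward strand, and the other 6 are on the reverse strand. Cd209a lies at chr8:3743397-3748984, Cd209d at chr8:3871824-3878555 and Cd209b at chr8:3917655-3926844. Cd209f lies at chr8:4102787-4105835 and Cd209g at chr8:4134098-4137707, 28262 bases apart and, with their opposite strands, head to head.

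The bases before the start of Cd209f and Cd209g are printed because these members followed each other in every resident macrophage cluster described below. Those of Cd209a and Cd209d are printed as the other pair that was often found in the same cells. All are from RefSeq (GRCm38.p6), 5′ to 3′ on the strand of the gene, cut to the bases before the start of every coding transcript in GENCODE vM21. Capitals mark the longest run that the printed stretch shares with its partner in the pair. Cd209a and Cd209d share a second run of the same length near the end of each stretch, which is left in lower case. The stretches lie at chr8:4105836-4106014 on the reverse strand for Cd209f and chr8:4134486-4134651 on the forward strand for Cd209g. Those of Cd209a and Cd209d lie at chr8:3748985-3749234 and chr8:3878556-3878749, both on the reverse strand. The Cd209g stretch lies inside a longer non-coding transcript that the annotation gives for that gene.
Cd209f: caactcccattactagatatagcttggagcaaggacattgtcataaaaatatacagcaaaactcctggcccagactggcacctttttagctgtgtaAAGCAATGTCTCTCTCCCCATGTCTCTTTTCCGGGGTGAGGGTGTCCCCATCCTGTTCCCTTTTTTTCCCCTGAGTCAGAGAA
Cd209g: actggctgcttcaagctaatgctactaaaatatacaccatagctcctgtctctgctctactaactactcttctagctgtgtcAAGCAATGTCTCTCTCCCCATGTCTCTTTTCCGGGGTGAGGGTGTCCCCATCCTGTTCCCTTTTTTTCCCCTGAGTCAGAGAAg
Cd209a: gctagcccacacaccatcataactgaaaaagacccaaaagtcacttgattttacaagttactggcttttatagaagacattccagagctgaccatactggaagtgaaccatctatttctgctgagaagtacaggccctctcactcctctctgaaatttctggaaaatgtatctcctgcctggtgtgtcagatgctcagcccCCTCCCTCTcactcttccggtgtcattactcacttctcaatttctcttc
Cd209d: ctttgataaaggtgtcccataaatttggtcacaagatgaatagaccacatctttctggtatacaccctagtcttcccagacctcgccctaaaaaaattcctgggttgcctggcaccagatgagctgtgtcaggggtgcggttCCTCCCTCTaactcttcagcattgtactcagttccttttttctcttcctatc

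The printed stretches of Cd209f and Cd209g shared an identical run of 83 bases, and those of Cd209a and Cd209d a run of 9. In the whole RefSeq windows, which reach from 250 bases before the start to 50 after it, the identical run of Cd209f and Cd209g was 180 bases long. In the other 20 pairs of the 7 genes the longest run was between 7 and 17 bases. Aligned on the run of 180 bases, 189 of 236 bases (80.1%) before the RefSeq starts of Cd209f and Cd209g were identical. Both counts include bases that lie after the start of a coding GENCODE transcript and were left out of the printed stretches. The shared run holds TGAGTCA, the letters of an AP-1 site. On either strand these letters were in the 250 bases before the start of 4.46% of 32851 RefSeq promoters and, among the 5 members, of Cd209f and Cd209g. The other letters searched in the same way were TATAAA of the TATA box (Cd209a, Cd209f and Cd209g, 12.4% of promoters), GAGGAA of the PU.1 core (Cd209d, 23.3%) and TGCTGA of a MAF factor's site (Cd209a and Cd209d, 16.1%). In Cd209f and Cd209g TATAAA stood at -29 and -43 from the RefSeq start. These places are among the 71 and 84 bases left out of the printed stretches, after the start of a coding GENCODE transcript. A match is a description of the letters and not of binding, and no match says only that the letters are not in this window.

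Near-identical copies can make reads hard to assign, so the transcripts were compared over 91-base windows, the length of the sequenced insert. Of the 21 pairs of family genes, 1 shared any such window, Cd209f and Cd209g. In their longest coding transcripts the shared windows ended 576 bases before the 3′ end of Cd209f and 560 bases before that of Cd209g. No window of the last 500 bases, where 3′ libraries take most of their reads, was shared in any pair. Reads further upstream could still have been lost or split between Cd209f and Cd209g, which cannot be seen in the counts.

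After the filter 3797 of 5257 barcodes remained, 2396 of library 1 and 1401 of library 2, with medians of 10761 and 11196 UMIs per cell. No kept barcode sequence was shared between the libraries. Scrublet called 6 cells as doublets, too few for the call to have worked, so doublets count as untreated. Clusters were built without the family genes, and 13 of 28 clusters, with 2049 cells, were myeloid by their markers. The remaining cells carried markers of fibroblasts, endothelium, pericytes and other skin cells. The names end in -like because they rest on marker lists. The 12 markers of the resident macrophage list were all above 20 CPM in the resident-like cells and 6 of 12 were in the dendritic-like cells. In the monocyte-like cells, the inflammatory-like cells and an unnamed cluster led by Retnla 10 of 12 were. In an unnamed cluster led by Apod 9 were, so that this count sets the resident-like cells little apart from these groups. Summed over the list, the resident-like cells had 17541 CPM and the inflammatory-like cells, the next group, 3503 CPM. All 9 markers of the dermal dendritic list were above 20 CPM in the dendritic-like cells and 4 of 9 were in the resident-like cells. In the Apod-led cluster and in the mature dendritic-like cells 8 of 9 were above 20 CPM. By this count the dendritic list thus does not set the dendritic-like cells apart from these 2 groups.

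The members differed in how many of these groups they marked. Cd209f and Cd209g were concentrated in resident-like cells, a group of 700 cells in 3 clusters led by Ccl8, Pf4, Folr2 and C1q genes. Cd209b was highest in the same cells but had a lower second level in dendritic-like cells, a group of 390 cells whose larger clusters had Mgl2, Napsa and Klrb1b among their leading genes. Cd209d was high in both groups, and Cd209a was highest in dendritic-like cells and present in most myeloid groups.

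Cd209a was counted most often, with 16743 UMIs in 1360 cells, followed by Cd209d with 10718 UMIs in 1189 cells. Cd209f had 3372 UMIs in 428 cells, Cd209b 1756 in 425 cells and Cd209g 1397 in 365 cells. Of these UMIs, between 97.3% (Cd209d) and 98.7% (Cd209f) were in myeloid cells. Just outside the member list, Cd209e had 1791 UMIs in 448 cells and Cd209c had 306 in 226 cells, so that Cd209e was counted more often than Cd209b or Cd209g.

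**Figure D1:**
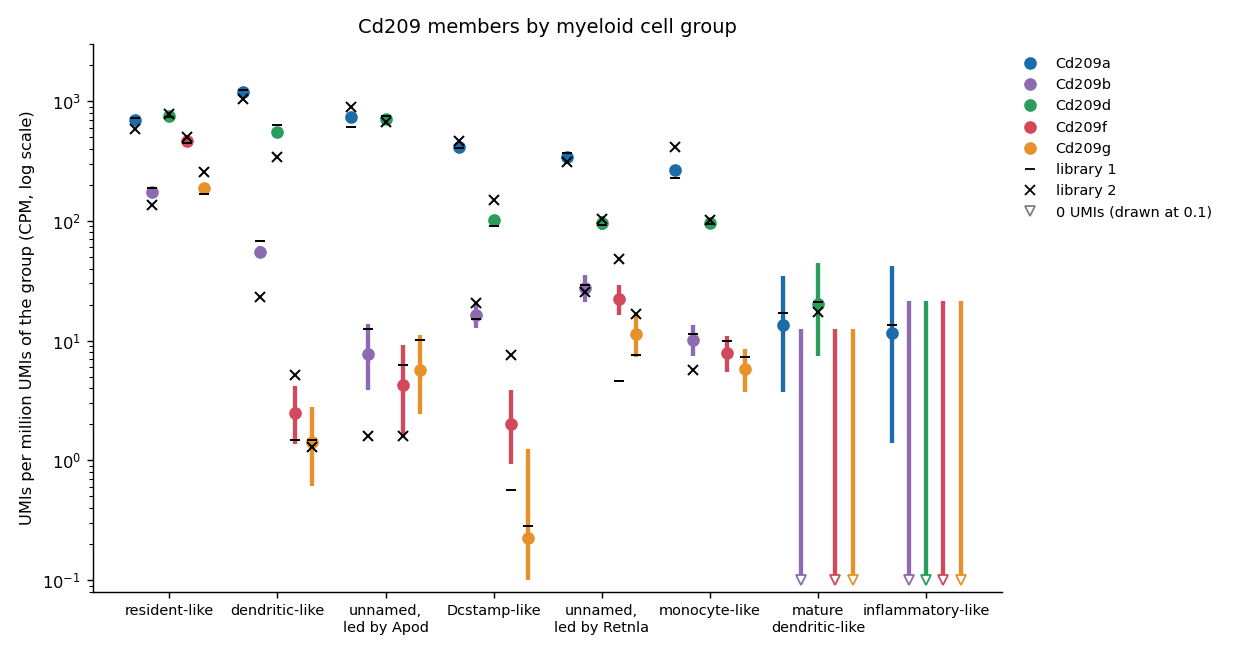
CPM of the 5 members (log axis) in the 8 myeloid groups. Coloured points are the sum over both libraries with the exact 95% Poisson interval as a bar, black marks are the libraries, and open triangles are groups with 0 UMIs. Cd209f and Cd209g stand at 461 and 187 CPM in resident-like cells and at 22.2 CPM or less elsewhere, whereas Cd209a and Cd209d are at 95.9 CPM or more in 6 groups.

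Cd209f was all but limited to resident-like cells. Its level in resident-like cells was 461 CPM (95% interval 445 to 477, 3217 UMIs), with 451 CPM in library 1 and 498 CPM in library 2. The next group, an unnamed cluster of 151 cells led by Retnla, had 22.2 CPM, but the libraries stood apart there at 4.58 and 47.9 CPM. Its 49 UMIs were in 8 cells, with 20 of them in 1 cell. The monocyte-like cells had 7.84 CPM, all in library 1, from 34 UMIs in 5 of 345 cells, with 16 in 1 cell. In dendritic-like cells, where Cd209a was highest, Cd209f stood at 2.48 CPM (14 UMIs in 6 of 390 cells). In cell types that should lack the gene, endothelial-like cells had 1.88 CPM (0.76 to 3.87), which overlapped the 1.36 to 4.17 of the dendritic-like cells, and fibroblast-like cells had 0.45 CPM (0.16 to 0.97), which lay below it. Relative to all other myeloid cells, Cd209f was higher in resident-like cells by a log2 ratio of 6.25 (95% interval 5.98 to 6.54), with 6.85 in library 1 and 5.39 in library 2. Under other cell filters and clusterings it lay between 4.16 and 6.33, and as a mean over cells it was 7.13. All intervals given here cover counting error only, since each age has 1 library and cells are not replicates.

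Cd209g followed Cd209f at a lower level. It had 187 CPM in resident-like cells (95% interval 177 to 198, 1309 UMIs), with 169 and 255 CPM in libraries 1 and 2. All other myeloid groups were at or below the 11.3 CPM of the Retnla-led cluster, and dendritic-like cells had 1.42 CPM. The log2 ratio of resident-like over the other myeloid cells was 5.70 (5.34 to 6.07), with 5.52 in library 1 and 6.22 in library 2. Library 2 had the higher ratio of Cd209g and library 1 that of Cd209f, so that the libraries gave no common order of these members.

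Cd209b, the SIGN-R1 gene, was also highest in resident-like cells but less exclusively. It had 176 CPM there (166 to 186), 55.2 CPM in dendritic-like cells (49.2 to 61.6) and 27.6 CPM in the Retnla-led cluster. The resident-like level was 187 CPM in library 1 and 135 CPM in library 2, and the dendritic-like level was 67.3 and 23.2 CPM. The resident-like cells were thus above the dendritic-like cells in both libraries, whereas the dendritic-like cells were above the Retnla-led cluster in library 1 but not in library 2. The log2 ratio of resident-like over the other myeloid cells was 2.70 (2.55 to 2.86), with 2.61 and 2.99 in libraries 1 and 2.

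Cd209d was shared by 3 groups, and the interval of the dendritic-like cells lay below those of the other 2. It had 746 CPM in resident-like cells (725 to 766), 711 CPM in an unnamed cluster of 104 cells led by Apod (668 to 756) and 554 CPM in dendritic-like cells (534 to 573). The intervals of the resident-like cells and the Apod-led cluster overlapped, and library 1 had them in the other order. The dendritic-like level was 635 CPM in library 1 and 338 CPM in library 2, a larger gap than the 736 and 780 CPM of the resident-like cells. The Dcstamp-like cells, the Retnla-led cluster and the monocyte-like cells came next with 102, 96.9 and 95.9 CPM, whose intervals overlapped. The log2 ratio of resident-like over the other myeloid cells was 1.40 (1.35 to 1.46), with 1.34 and 1.61 in libraries 1 and 2. Under a stricter cell filter the dendritic-like cells led the named groups instead, with 609 CPM.

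Cd209a led in dendritic-like cells with 1190 CPM (1162 to 1219, 6711 UMIs), 1247 CPM in library 1 and 1041 CPM in library 2. The Apod-led cluster had 738 CPM and the resident-like cells 694 CPM, with overlapping intervals and opposite orders in the 2 libraries. The Dcstamp-like cells followed with 417 CPM, the Retnla-led cluster with 344 CPM and the monocyte-like cells with 266 CPM. In library 2 the last 2 stood in the other order, at 312 and 413 CPM. Cd209a was thus the member with the broadest presence among myeloid cells. The log2 ratio of dendritic-like over the other myeloid cells was 1.29 (1.25 to 1.34), with 1.38 and 1.02 in libraries 1 and 2. Against the other myeloid cells the resident-like cells differed little, with a log2 ratio of 0.16, which was 0.24 in library 1 and -0.16 in library 2.

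Not every dendritic-like group held Cd209a. The 21 mature dendritic-like cells, with Ccr7 and Fscn1 among their leading genes, had 13.6 CPM of Cd209a (3.71 to 34.8) from 4 UMIs, and 20.4 CPM of Cd209d. Cd209b, Cd209f and Cd209g had 0 UMIs there, which allows up to 10.2 CPM each. The 24 inflammatory-like cells had 2 UMIs of Cd209a and none of the other members, which allows up to 17.4 CPM. Both groups are small, and the counts behind these limits are few.

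By the measure used for all genes, a log2 ratio of at least 1 over the other myeloid cells, 4 of the 5 members were raised in resident-like cells and 1 of 5 in dendritic-like cells. Of all 10171 genes with enough UMIs, 9.56% were raised in resident-like and 4.41% in dendritic-like cells. The median log2 ratio of the members was 2.70 in resident-like cells, beside 0.05 over all genes, and in dendritic-like cells it was -0.37 beside -0.17. Nothing is read from these counts, because the members were chosen from the same cells.

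Within the resident-like group the members fell together from cluster to cluster. Cluster 2 (299 cells) had 803 CPM of Cd209f, 316 CPM of Cd209g and 307 CPM of Cd209b. Cluster 3 (298 cells) had 308, 132 and 116 CPM of the same genes. Cluster 16 (103 cells), which also had the monocyte gene Ly6c2 among its leading genes, had 184, 80.9 and 71.8 CPM. Cd209a fell from 1024 CPM in cluster 2 to 539 CPM in cluster 3 and 436 CPM in cluster 16, and Cd209d from 1151 to 590 and 383 CPM.

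Over both libraries together, the proportions of Cd209f, Cd209g and Cd209b differed little between these clusters. There were 2.54 UMIs of Cd209f for each of Cd209g in cluster 2 (95% interval 2.34 to 2.76), 2.33 in cluster 3 (2.05 to 2.66) and 2.27 in cluster 16 (1.87 to 2.77). For each UMI of Cd209b there were 2.62, 2.66 and 2.56 of Cd209f in the same clusters. The intervals overlapped in both cases. Against Cd209a, in contrast, Cd209f stood at 0.78 UMIs per UMI in cluster 2, 0.57 in cluster 3 and 0.42 in cluster 16, with intervals that did not overlap. That order held in library 1 (0.77, 0.50 and 0.35) but not in library 2 (0.85, 0.90 and 0.76). The libraries also differed in the proportion of Cd209f to Cd209g, with 2.67 in library 1 and 1.95 in library 2 over all resident-like cells. For Cd209f to Cd209b the gap was 2.41 (2.24 to 2.60) in library 1 against 3.68 (3.15 to 4.32) in library 2.

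**Figure D2:**
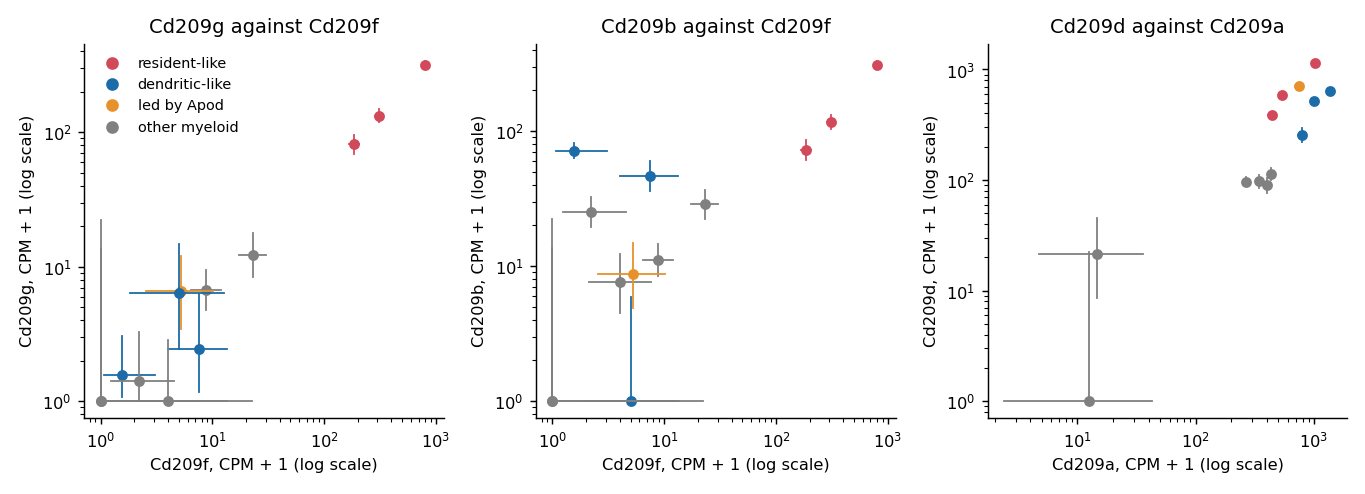
Levels of pairs of members in the 13 myeloid clusters, as CPM + 1 on log axes with exact 95% Poisson intervals. Resident-like clusters are red, dendritic-like blue, the Apod-led cluster orange and the others grey. The 3 resident-like clusters stand apart from the others in Cd209f and Cd209g, whereas Cd209b and Cd209a extend into the dendritic-like clusters.

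In the dendritic-like clusters Cd209a stood above Cd209d. Cluster 5 (220 cells) had 1354 CPM of Cd209a, 632 CPM of Cd209d and 70.6 CPM of Cd209b. Cluster 11 (137 cells), with the immunoglobulin gene Igkc among its leading genes, had 992 CPM of Cd209a, 514 CPM of Cd209d and 45.7 CPM of Cd209b. Cluster 23 (33 cells), led by cell cycle genes, had 787 CPM of Cd209a, 256 CPM of Cd209d and 0 UMIs of Cd209b. There were 2.15 UMIs of Cd209a per UMI of Cd209d in dendritic-like cells (2.06 to 2.24) and 0.93 in resident-like cells (0.89 to 0.97). The ratio was higher still in the Dcstamp-like clusters 6 and 13 (3.85 and 4.47), the Retnla-led cluster (3.55) and the monocyte-like cells (2.77). In the Apod-led cluster it was 1.04 (0.95 to 1.13). An excess of Cd209a over Cd209d was thus not particular to dendritic-like cells. Libraries 1 and 2 had 1.96 and 3.07 in dendritic-like cells. In resident-like cells they had 0.98 (0.94 to 1.03), which does not set the members apart, and 0.75 (0.69 to 0.82). Among the resident-like clusters the ratio was 0.89 in cluster 2 and 0.91 in cluster 3, but 1.14 (1.03 to 1.26) in cluster 16, and cluster 3 had 1.09 in library 1 and 0.53 in library 2.

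Shares of cells were taken after each cell had been thinned to 2000 UMIs, because the groups differed in depth, with medians of 9156.5 UMIs (resident-like) and 14582 UMIs (dendritic-like). A UMI of Cd209f was found in 39.7% of 668 resident-like cells (95% Clopper-Pearson interval 35.9 to 43.5) and in 0.79% of 382 dendritic-like cells. The shares of Cd209g were 24.3% and 0.26%, and those of Cd209b 21.1% and 7.85%. Cd209d was found in 57.9% of resident-like and 53.4% of dendritic-like cells, and Cd209a in 55.8% and 67.8%. In 779 fibroblast-like cells (median 13108 UMIs), which should lack the family, the share was 0.90% for Cd209a, 0.64% for Cd209d and 0.13% for Cd209b and Cd209f. Cd209g was found in 0 of them, which allows up to 0.385%. The dendritic-like share of Cd209f, 3 of 382 cells, had an interval of 0.16 to 2.28%, which overlapped the 0.003 to 0.71% of the fibroblast-like cells. Cd209a was found in 5 of 66 keratinocyte-like cells (7.58%, median 22854.5 UMIs), where the other members had no UMI. Without thinning, the resident-like shares were 74.0% (Cd209a), 34.9% (Cd209b), 71.0% (Cd209d), 54.4% (Cd209f) and 46.3% (Cd209g).

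Outside the myeloid cells the members were rare and uneven. The 295 endothelial-like cells had 40.5 CPM of Cd209a, with 92 of 151 UMIs in 3 cells. The 826 fibroblast-like cells had 157 UMIs of Cd209d, of which 130 were in 3 cells. The part of doublets and of free RNA in these counts was not tested.

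Most cells that held a UMI of the restricted members also held one of the broad members. In the thinned resident-like cells, 194 of 265 Cd209f cells also had Cd209a (73.2%, 67.5 to 78.4) and 217 of 265 had Cd209d (81.9%). Among the 162 Cd209g cells, 125 also had Cd209f (77.2%, 69.9 to 83.4), and among the 141 Cd209b cells 109 had Cd209f (77.3%). The reverse shares were lower, with Cd209f in 52.0% of the 373 Cd209a cells.

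All 10 pairs of members were found together in resident-like cells more often than the product of their shares gives. The smallest factor was 1.22 for Cd209a and Cd209g (110 cells counted, 90.5 from the product) and the largest 2.05 for Cd209b and Cd209g (70 counted, 34.2 from the product). Cd209f and Cd209g had a factor of 1.95 (125 counted, 64.3 from the product), with 1.93 in library 1 and 1.99 in library 2. The 3 pairs among Cd209b, Cd209f and Cd209g had the highest factors, but a factor cannot exceed the inverse of the larger share. Pairs with Cd209a or Cd209d, which were found in more cells, therefore had a lower ceiling. The order of the factors, between pairs or between clusters, is thus no measure of how tightly members were found together.

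Because levels differed between clusters, the pairs were also counted within each. In cluster 2 all 10 pairs were above the product, with factors from 1.08 to 1.5. In cluster 3 all 10 were above it too, from 1.30 to 2.95, and Cd209f and Cd209g had 36 cells where the product gives 12.5. In cluster 16 the 5 pairs with a product of at least 5 cells had factors from 1.40 to 1.61. Among its pairs with a smaller product, Cd209a and Cd209g alone fell below it, with 3 cells against 3.26. Cd209f and Cd209g had 2 cells there against 1.66, too few to read.

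In dendritic-like cells co-detection was mostly that of Cd209a and Cd209d. Both were found in 167 of 382 thinned cells, where the product of the shares gives 138 (factor 1.21), and 64.5% of the Cd209a cells had Cd209d. Within cluster 5 the factor was 1.06 (115 cells counted, 108 from the product). Within cluster 11 it was 1.40 (43 counted, 30.6 from the product). Cd209a was found in 175 of 220 cells of cluster 5 and in 67 of 129 cells of cluster 11. The ceiling of the factor was therefore lower in cluster 5, and the clusters were not ranked. Cd209b was found in 30 cells, of which 28 also had Cd209a and 22 had Cd209d. Cd209f was found in 3 cells and Cd209g in 1, too few for a pattern.

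**Figure D3:**
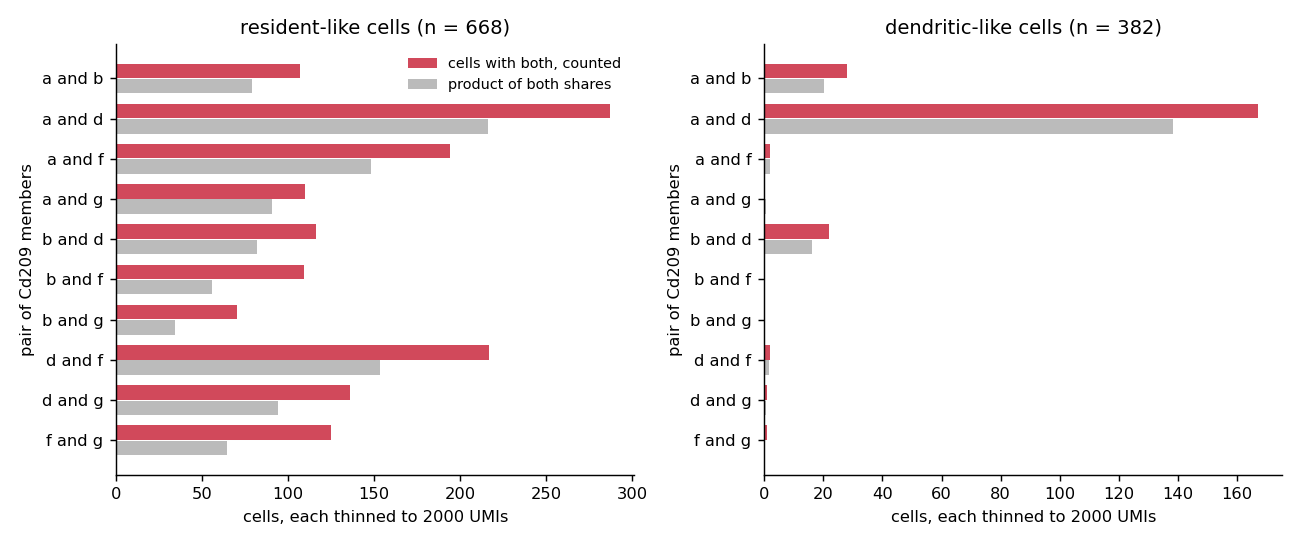
Number of cells in which both members of a pair were found (red) and the number that the product of their shares gives (grey), after thinning each cell to 2000 UMIs, in resident-like (left) and dendritic-like cells (right). All 10 pairs exceed the product in resident-like cells, and pairs with Cd209f or Cd209g are nearly absent from dendritic-like cells.

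Counted over whole cells without thinning, 163 of 700 resident-like cells (23.3%) had all 5 members and 113 (16.1%) had none. None of the 390 dendritic-like cells had all 5, and 195 had Cd209a and Cd209d alone among the members. Another 79 dendritic-like cells (20.3%) had these and Cd209b.

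Cd209f without Cd209a was a rare state, found in 35 myeloid cells (27 in library 1 and 8 in library 2), whereas 896 cells had Cd209a without Cd209f and 374 had both. Of the 35 cells, 32 were resident-like, and of the 896 cells 169 were resident-like and 316 dendritic-like. The Cd209f cells were also shallower, with a median of 7673 UMIs against 13599, and the part of depth in missing a Cd209a UMI was not tested.

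Other genes separated these cells. Among 5504 genes with enough UMIs, 279 (5.07%) were at least 1 log2 unit higher in Cd209f cells and 448 (8.14%) in Cd209a cells, on the scale of log2(CPM + 10). The genes furthest up in Cd209f cells included Lyve1, a hyaluronan receptor (276 against 11.7 CPM), Folr2, the folate receptor beta gene (846 against 81.1 CPM), and Ccl8, a chemokine (5482 against 707 CPM). Their log2 ratios were 3.72, 3.23 and 2.94. Gas6, a ligand of TAM receptors that bridges them to dying cells, and the complement gene C4b were also among them, as were Ednrb, Fxyd2 and Cbr2. Cxcl1 had a log2 ratio of 1.00 in library 1 and 4.60 in library 2, and 1 cell held 37.0% of its UMIs.

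The genes furthest up in Cd209a cells included Il7r, the interleukin 7 receptor alpha chain, the fibronectin gene Fn1, Napsa and the elastase gene Mmp12. Il7r had 296 CPM in Cd209a cells and 0 UMIs in the 35 Cd209f cells, so that it was at least 27.5-fold lower in these, and Mmp12 (178 CPM and 0 UMIs) at least 16.6-fold lower. These limits use 3 counts over all Cd209f cells. Fn1 had 560 CPM against 3 UMIs, a log2 ratio of -5.70 (95% interval -7.98 to -4.15), and Napsa 300 CPM against 1 UMI, a log2 ratio of -6.39 (-11.7 to -3.91). The other genes were Tnip3, Nr4a3, Klrb1b, Nectin1, Tspan13 and H2-DMb2, a gene of MHC class II loading. Folr2, Lyve1, Gas6, Cbr2 and Ccl8 are on the list that named the resident-like cells. Tnip3 is on the dendritic list, and Fn1 is on the list that named the Dcstamp-like cells. With every Cd209f cell counted (409 cells), a comparison chosen after seeing the data, Fn1 had 118 CPM against 560 CPM. Its log2 ratio, on the scale of the gene counts, was -3.66 in library 1 and -0.00025 in library 2. With the 35 cells the same ratio had been -4.75 in library 1 and -4.96 in library 2, from 3 UMIs. With every Cd209f cell counted, Fn1 therefore differed in library 1 alone. Napsa had -2.52 and -2.09, and H2-DMb2 -2.18 and -1.90. Il7r, Mmp12, Tnip3, Nr4a3, Klrb1b, Nectin1 and Tspan13 were no longer among the genes furthest up in Cd209a cells.

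**Figure D4:**
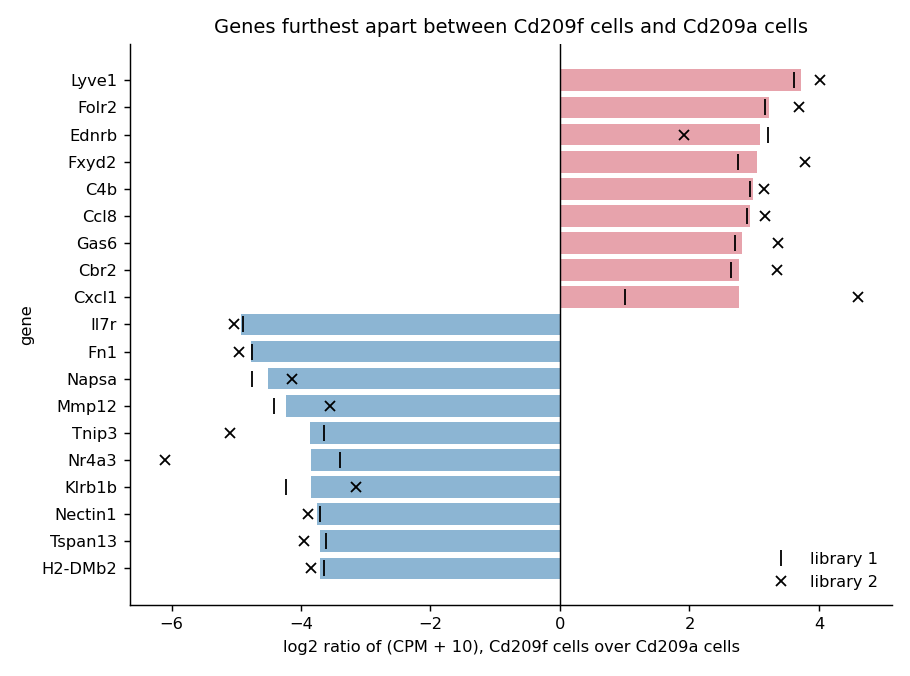
Log2 ratio of CPM + 10 of the genes furthest apart in each direction (9 higher in Cd209f cells, 10 higher in Cd209a cells) between 35 myeloid cells with Cd209f but no Cd209a and 896 with Cd209a but no Cd209f. Bars are both libraries together and black marks the single libraries. Lyve1 stands highest at 3.72 and Il7r lowest at -4.93, and all 19 genes have the same direction in both libraries, as the rule for naming them required.

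Within resident-like cells far fewer genes passed the same limit. With every Cd209f cell counted (381 cells) against the 169 with Cd209a but no Cd209f, 5 of 3612 genes were at least 1 log2 unit higher in Cd209f cells and 15 were in Cd209a cells. The 5 were the B cell chemokine gene Cxcl13 (189 against 18.6 CPM), Timd4, a receptor for phosphatidylserine (47.6 against 9.64 CPM), the complement genes C6 and C4b, and Enpep. Cxcl13 had a log2 ratio of 2.80 over both libraries, but 1.20 in library 1 and 2.28 in library 2, so that the pooled value was above both. Timd4 (1.79 and 0.57) and C6 (1.48 and 0.54) fell short of 1 in library 2. Among the 15 were Lyz1 (76.0 against 248 CPM), Il1b (468 against 1021 CPM) and Ccr2 (180 against 389 CPM), a chemokine receptor of monocytes. This comparison and its genes were chosen after the values had been seen, and Cxcl13 was also the gene most alike to Cd209f over clusters.

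Genes tied to the family by function or position were split between the groups. Of 15 listed genes, 5 were raised in resident-like cells and 3 were lower by as much, beside 9.56% of all genes that were raised and 7.78% that were lower. Il4ra, the interleukin 4 receptor alpha chain, had 321 CPM in resident-like and 120 CPM in the other myeloid cells (log2 ratio 1.42). The transcription factor gene Maf was raised too (297 against 63.8 CPM, log2 ratio 2.22), and Klf4, another one, just passed with 1.05. Mrc1, the mannose receptor gene, had 2004 CPM against 533, and Clec10a, a galactose-type lectin, 972 against 161 CPM. Maf and Mrc1 are on the list that named these cells and support nothing. Spi1, Stat6 and Irf4 had log2 ratios of 0.01, -0.09 and 0.32, and so differed by less than 1 unit.

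In dendritic-like cells 3 of the 15 genes were raised and 3 were lower, beside 4.41% and 14% of all genes. Cd207, the langerin gene, had 106 CPM against 4.33 in the other myeloid cells (log2 ratio 4.61, with 4.53 and 5.04 in the libraries). It was the 1 gene of the 5 Langerhans markers above 20 CPM there. The neighbours of the family on chromosome 8, Clec4g and Fcer2a, were raised both in dendritic-like cells and in the Apod-led cluster. In dendritic-like cells Clec4g had 36.7 against 6.95 CPM (log2 ratio 2.40) and Fcer2a, the low-affinity IgE receptor gene, 29.8 against 5.24 CPM. Fcer2a had a log2 ratio of 3.71 in library 1 and -0.46 in library 2, so that its value rests on library 1. Maf, Mrc1 and Clec10a were lower, with log2 ratios of -5.08, -1.03 and -1.92. Clec10a was lower and raised in resident-like cells, although it is on the list that named the dendritic-like cells. Card9, Fcer1g and Syk, which carry signals from many C-type lectins, were raised in neither group.

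The genes whose levels over the 13 myeloid clusters were most like those of Cd209f were Cxcl13, Samd4, Cd28, Pdgfc and Cd38, with Pearson r from 0.98 to 0.99. The same 5 were the most alike to Cd209g, and Cd209f and Cd209g had r of 0.99 with each other. P3h2, Nxpe5, Ggt5, Zfp652 and Arf6 were closest to Cd209b, with r from 0.88 to 0.91, and Cd209b had r of 0.81 with Cd209f. Nfatc2, Osgep, Tppp3, Wfdc17 and Aph1b were closest to Cd209a, with r from 0.92 to 0.94, and Deptor, Nfatc2, Trip11, Rasgrp4 and Usp36 to Cd209d, with r from 0.91 to 0.93. Cd209a and Cd209d had r of 0.91 with each other and Cd209a and Cd209f 0.32. These r are descriptions over 13 clusters of the same libraries, ranked among 7338 genes on log2(CPM + 10), and carry no test.

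Beside the members, Cd209e and Cd209c had patterns of their own. Cd209e was highest in the Apod-led cluster with 529 CPM (492 to 568), 509 CPM in library 1 and 554 CPM in library 2, followed by 82.3 CPM in dendritic-like and 45.8 CPM in resident-like cells. In that cluster Cd209b, Cd209f and Cd209g had 7.75, 4.23 and 5.63 CPM, so that the cells high in Cd209e held Cd209a and Cd209d but little of the other members. Cd209c was low throughout, highest in dendritic-like cells with 27.5 CPM and at 9.88 CPM in resident-like cells.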

How the data were processed

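Dorsal skin cells of 2 ages were sequenced as 2 libraries of Chromium 3′ v3.1 chemistry. The authors made the deposited counts, whole-number UMI counts per gene and cell, with Cell Ranger 4.0.0 on mm10, per the submitters' processing notes. Cells with at least 500 genes, 1000 UMIs and at most 10% mitochondrial UMIs were kept (Python 3.11.15, scanpy 1.11.5, numpy 2.4.6, scipy 1.17.1). They were clustered on 2000 variable genes without the family (30 components, 15 neighbours, leidenalg 0.10.2, resolution 1, seed 1). Clusters were named from 21 marker lists by a rule set after the clusters had been seen (at least 3 list members at 20 CPM or more and 2 times the median over clusters). The members and lists were chosen with earlier results of these data known.

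UMI sums per 1e+06 UMIs (CPM) have exact Poisson intervals, ratios an exact conditional binomial interval and shares a Clopper-Pearson interval, all at 95%. Limits for a count of 0 use 3 counts. Genes needed 50 UMIs for a ratio and 200 for the other rankings. Named were the members, the family and its neighbours on the chromosome, 13 genes tied to the family, the 5 genes most alike to each member and the 10 furthest apart in each direction between Cd209f and Cd209a cells, except genes not reported here. No test was run, because each age has 1 library and its suffix is not tied to an age. Thinning to 2000 UMIs left out 71 myeloid cells. The steps were tested on simulated data. Alternatives changed the filter, clustering, doublets, library, weighting, thinning and UMI minimum.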

Additional observations from a re-analysis of the deposited data

How the results depend on the processing

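Counting error, 1 library per age and unknown suffixes limit these values, and cells are not replicates. No paired analysis was possible because no result comes from a test and no replicate number is tied to a library. In 12 alternatives the log2 ratios of the 5 members, 60 values, were all above 0, and 25 lay within the interval first given. Among the named groups, the leading group was the same in 12 of 12 settings for Cd209a, Cd209b, Cd209f and Cd209g. For Cd209d it was the same in 11 of 12. The mean over cells was not used in this count, so that this setting repeats the main one. Unnamed clusters were left out of it. In library 1 alone the Apod-led cluster was above the resident-like cells in Cd209d, with 746 against 736 CPM. Where a ratio (dendritic-like for Cd209a, resident-like for the others) left its interval, the cause was not tested. A stricter cell filter (1000 genes, 2000 UMIs, at most 5% mitochondrial UMIs) gave 1.64 (Cd209a) and 1.01 (Cd209d), and a looser one (at most 20%) 1.24 (Cd209a), 1.80 (Cd209d), 4.16 (Cd209f) and 4.03 (Cd209g). Resolution 0.5 gave 1.20, 1.59, 4.72 and 4.46 for the same 4 members, and resolution 2 gave 1.19 for Cd209a. With 3000 variable genes the values were 0.89 (Cd209a), 2.94 (Cd209b), 1.81 (Cd209d), 4.79 (Cd209f) and 4.52 (Cd209g). With the family among the variable genes they were 1.64 (Cd209d), 4.74 (Cd209f) and 4.48 (Cd209g). The mean over cells gave 1.18 (Cd209a), 1.70 (Cd209d), 7.13 (Cd209f) and 6.72 (Cd209g). Without library 1 they were 1.02 (Cd209a), 2.99 (Cd209b), 1.61 (Cd209d), 5.39 (Cd209f) and 6.22 (Cd209g), and without library 2 they were 1.38 (Cd209a), 1.34 (Cd209d) and 6.85 (Cd209f).

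The following were chosen after seeing the data. Without the cell cycle cluster Cd209a had 1.36, and without the Ly6c2 cluster Cd209b had 2.98, Cd209d 1.64 and Cd209f 6.54. Counting all Cd209f cells left 188 genes higher in Cd209a cells, and within resident-like cells the counts were 5 (Cd209f) and 15 (Cd209a).

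Co-detection shares moved with depth. The share of Cd209f cells with Cd209g was 32.1% at 1000 UMIs, 63.5% at 4000, 78.7% unthinned and 67.3% with at least 2 UMIs of each. That with Cd209a was 55.1%, 83.7%, 91.6% and 87.4% in the same settings. The share of Cd209a dendritic-like cells with Cd209d was 44.6%, 75.5%, 87.5% and 82.8%, and 45.8% without library 1.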
